A study of Mus musculus with 2 samples.

Results

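The Notch pathway was followed here through 10 genes in the postpartum brain of TDAG51-deficient dams. Mib1 and Mib2 encode ubiquitin ligases that act on Notch ligands, Dll1, Jag1 and Jag2 encode ligands, Notch1, Notch2 and Notch3 encode receptors, and Hes1 and Hes5 encode transcriptional repressors induced by Notch. Every non-control probe that carries one of these gene names was kept separately, which gave 16 of the 41174 probes of the array. The set was selected on the ratios of these arrays, since 1 Mib1 probe had a high ratio of TDAG51-/- over both controls and the probes of Mib1 differed, so the values of Mib1 are given as a description.

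The samples were brain tissue from female C57BL/6J mice 8 weeks old, obtained on P0, the day of parturition, and the study's methods call the tissue whole brain. A TDAG51-/- sample was labelled with Cy3 on both arrays, and the titles do not state whether it was the same RNA. The first array set it against a TDAG51+/+ sample in Cy5. The second set it against a sample in Cy5 labelled TDAG51 KO Tg, which the study's text names TDAG51-/-Tg2. That sample carries the same TDAG51 deficiency and in addition a TDAG51 transgene. The transgene is driven by the BAI1-AP4 promoter, described for the study as brain-specific and active mainly in cerebral cortex and hippocampus, and TDAG51-/-Tg2 is a single transgenic line. How many dams contributed to a sample is not in the labels. Each comparison rests on 1 array, both on the same slide and without a dye swap. No p-value across animals can therefore be given, and a dye effect and a genotype effect cannot be told apart.

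Notch is a receptor that is cut after it binds a ligand on a neighbouring cell. MIB1 and related ligases add ubiquitin to the ligand, whose uptake by the ligand-presenting cell pulls on the receptor, and proteases then release the intracellular part, which enters the nucleus and joins the DNA-binding protein RBPJ to switch on Hes genes. In the adult brain, Notch signaling is known for keeping neural stem cells from differentiating, and it also acts in astrocytes, in neurons and, through Notch3, in the mural cells of blood vessels.

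The sequences below show what the arrays read for a target, a ligand and a receptor. All 3 probes have 60 bases and lie in coding sequence, and they are written 5' to 3' from the deposited scanner output, with positions on mm7. The Hes1 probe spans chr16:29738743-29739038 on the plus strand, a genomic stretch of 296 bases, so that it bridges an exon junction. The Jag1 probe A_51_P280906 lies at chr2:136824059-136824118 on the minus strand and the Notch2 probe A_51_P216397 at chr3:98018506-98018565 on the plus strand.
Hes1 probe: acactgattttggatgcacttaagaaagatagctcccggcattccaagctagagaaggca
Jag1 probe: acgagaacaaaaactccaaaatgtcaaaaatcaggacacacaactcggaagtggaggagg
Notch2 probe: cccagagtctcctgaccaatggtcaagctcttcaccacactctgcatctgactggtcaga

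The promoter window of Hes5 is shown because Hes5 is a textbook target of Notch and RBPJ. It runs from 250 bases before to 50 bases after the start of the gene at chr4:154960673-154960972 on the plus strand of GRCm38.p6, as given by RefSeq. Capitals mark the letters TGGGAA, the core that RBPJ is known to recognize, or their complement TTCCCA.
Hes5 promoter: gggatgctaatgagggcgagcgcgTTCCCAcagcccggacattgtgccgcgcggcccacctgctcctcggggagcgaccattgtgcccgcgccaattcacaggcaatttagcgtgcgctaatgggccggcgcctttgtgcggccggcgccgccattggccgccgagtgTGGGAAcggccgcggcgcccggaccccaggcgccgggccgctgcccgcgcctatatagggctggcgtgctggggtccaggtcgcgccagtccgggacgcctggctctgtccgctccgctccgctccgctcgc

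The window held 2 such cores, which began 226 and 82 bases before the start of the gene, and both also matched the longer form GTGGGAA on 1 of the strands. TGGGAA was found on either strand in 25.6% of 32851 promoter windows of the same length, and GTGGGAA in 6.38%. Of the 8 member genes with a window in the RefSeq set (10 windows in all), 1 held the core, Hes5. Hes1 and Mib1 had no window in that set, so their promoters were not read. A match in these letters is a description of the sequence and was not tested for binding.

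At the probe for TDAG51 itself (Phlda1, NM_009344, chr10:110970234-110970293), TDAG51-/- had an intensity of 350 beside 7283 for TDAG51+/+, which made it 17.3-fold lower after normalization. When set against the TDAG51-/-Tg2 sample, it had 44.1 beside 50.5, both near background, and no ratio was taken. The TDAG51-/- channels of both arrays thus differed at this probe (350 and 44.1), which bears on the size of the 17.3-fold value. Whether this probe lies within the transgene was not determined, and it gives no check of the transgene. All markers of neurons (8 of 8), astrocytes (9 of 9), mural cells (8 of 8) and endothelial cells (8 of 8) were detected, with 7 of 8 for oligodendrocytes. Of 10 cerebellar markers, 7 were at least 2-fold higher in TDAG51-/- than in both controls (2.64% of all detected genes). Of 8 striatal markers, 6 were at least 2-fold lower than in both (1.7%). In whole tissue, fewer cells of a type and less RNA per cell cannot be told apart.

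Ratios below are log2 values of TDAG51-/- over control after background correction and loess normalization, and a log2 ratio of 1 is 2-fold. The value after ±, where no SD is named, is the technical error that the scanner software gives for its own log2 ratio of the same spot. That ratio can differ from the printed one at dim probes. Without normalization, the median log2 ratio of all detected probes was -0.19 and -0.24. Intensities not on the log2 scale, also where summed over a list, are scanner signals before background correction and normalization. A sum can therefore point another way than the ratios. Levels are log2 intensities of a channel on 1 common scale for both arrays, and they are compared between samples for the same probe and not between probes. Detected means marked by the scanner software as well above background in Cy3 or Cy5, or both, on each array. That held for 33254 probes, among them all 16 of the pathway. All 4 channels were above background and unsaturated for 12 of the 16.

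Most probes of the pathway differed little between TDAG51-/- and either control, and those past 2-fold were probes of Mib1, on whose ratios the set was selected. The counts at 2-fold therefore describe that selection. Without Mib1 AK053011 and NM_144860, none of the other 14 probes, Mib1 BC083072 among them, was 2-fold higher or lower in either comparison. At least 2-fold higher in TDAG51-/- than in TDAG51+/+ was 1 probe of 16, against 5.09% of all detected probes, and none was at least 2-fold lower, against 4.26%. Compared with TDAG51-/-Tg2, 1 probe was at least 2-fold higher (4.8% of all detected probes) and 1 at least 2-fold lower (3.75%). The same probe of Mib1, AK053011, was higher in both comparisons (2.7% of all detected probes), while none was lower in both (1.37%), and a different probe of Mib1, NM_144860, was the one lower than in TDAG51-/-Tg2. At a threshold of 1.5-fold, with dim and saturated probes at their fitted values, 4 of 16 were higher than in TDAG51+/+ (14.4% of all detected probes) and none was lower (12.4%). The same threshold left 2 higher than in TDAG51-/-Tg2 (14.2%) and 3 lower (11.7%), with 1 higher (8.02%) and none lower (5.4%) in both. The 4 include the saturated Notch2 probe, and 1 of the 2 is the dim Notch2 probe A_52_P448796, whose lower bound is 1.12-fold. The 16 probes had a median log2 ratio of 0.30 in the comparison with TDAG51+/+ and of -0.08 in the other, and the 12 probes measured in all channels had 0.02 and -0.14. Over all detected probes the median was 0.02 in each.

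**Figure D1:**
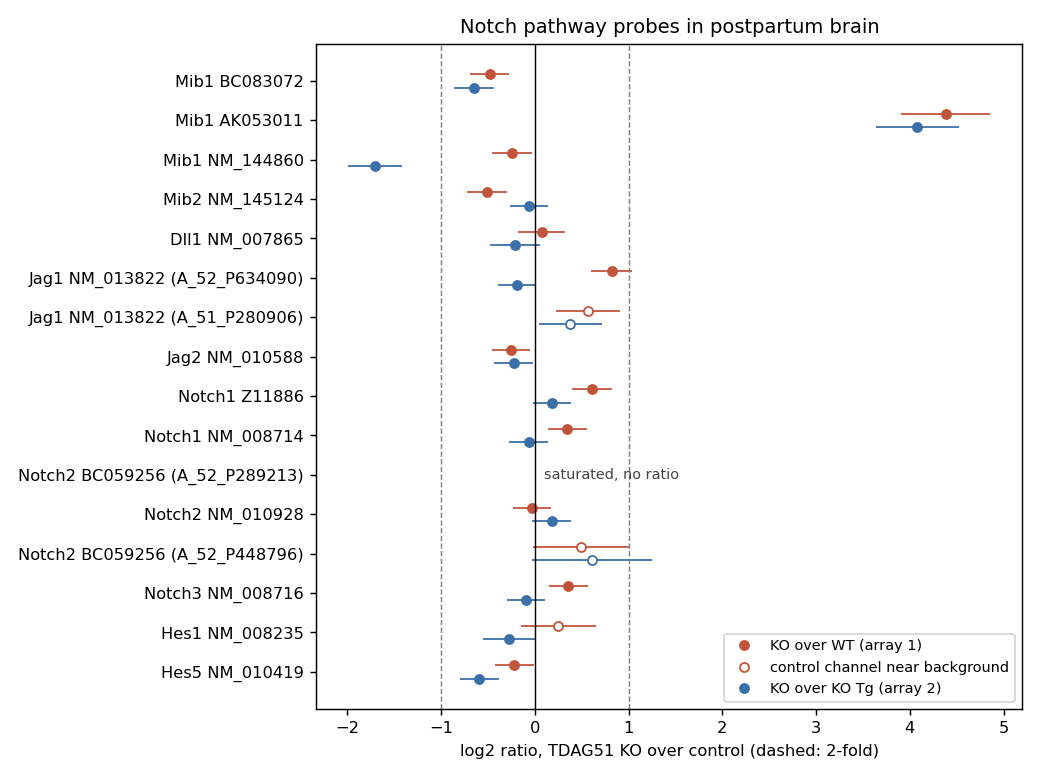
Log2 ratio of TDAG51-/- over TDAG51+/+ (red) and over TDAG51-/-Tg2 (blue) for each of the 16 probes, with the error of the scanner software's own ratio as bars and dashed lines at 2-fold. Open symbols are probes whose control channel was near background, and the saturated Notch2 probe has no ratio. Mib1 AK053011 stands at 4.38 and 4.08, and the other probes with a ratio, except Mib1 NM_144860 against TDAG51-/-Tg2, lie inside the dashed lines.

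Mib1 (Mind bomb 1) encodes a ligase known to be needed for ligands to activate Notch in mice, and its 3 probes lie along chromosome 18 on the plus strand. The AK053011 probe, named for a RIKEN cDNA, lies at chr18:10985896-10985955, the NM_144860 probe at chr18:11018609-11018668 and the BC083072 probe at chr18:11024094-11024153. The first lies 32713 bases before the second and 38198 bases before the last. No annotation of this build was used, so whether each lies in an exon of the Mib1 transcript was not determined.

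At the AK053011 probe, TDAG51-/- had an intensity of 8866 where TDAG51+/+ had 481, and of 8151 where TDAG51-/-Tg2 had 560. The levels were 13.24 and 13.12 in the TDAG51-/- channels, 8.86 in TDAG51+/+ and 9.04 in TDAG51-/-Tg2. Both TDAG51-/- channels lay far above both controls, which differed from each other by 0.18. TDAG51-/- was 20.9-fold higher than TDAG51+/+ (log2 4.38 ± 0.48) and 16.9-fold higher than TDAG51-/-Tg2 (log2 4.08 ± 0.45).

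The NM_144860 probe gave a different picture. Its levels were 7.50 and 7.83 in the TDAG51-/- channels, 7.74 in TDAG51+/+ and 9.54 in TDAG51-/-Tg2. Here the TDAG51-/-Tg2 sample stood apart from the other 3 channels. The log2 ratio was -0.24 ± 0.21 against TDAG51+/+ and -1.70 ± 0.28 against TDAG51-/-Tg2, where TDAG51-/- was 3.26-fold lower. Between the Cy5 channels of both arrays, TDAG51-/-Tg2 was 3.48-fold higher than TDAG51+/+ at this probe, with a log2 difference of 1.80.

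At the BC083072 probe, TDAG51-/- was 1.57-fold lower than TDAG51-/-Tg2 and 1.40-fold lower than TDAG51+/+. Levels of 14.71 and 14.35 in the TDAG51-/- channels stood beside 15.19 in TDAG51+/+ and 14.99 in TDAG51-/-Tg2. Both TDAG51-/- channels were the lower ones, by a log2 ratio of -0.48 ± 0.21 and -0.65 ± 0.21. With median centring in place of loess the ratios were -0.97 and -1.09. The ratios of the BC083072 and AK053011 probes of this gene thus lay 4.86 apart on the log2 scale against TDAG51+/+ and 4.73 against TDAG51-/-Tg2, far beyond the scanner's error of either, while those of NM_144860 and BC083072 lay 0.24 and 1.06 apart.

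**Figure D2:**
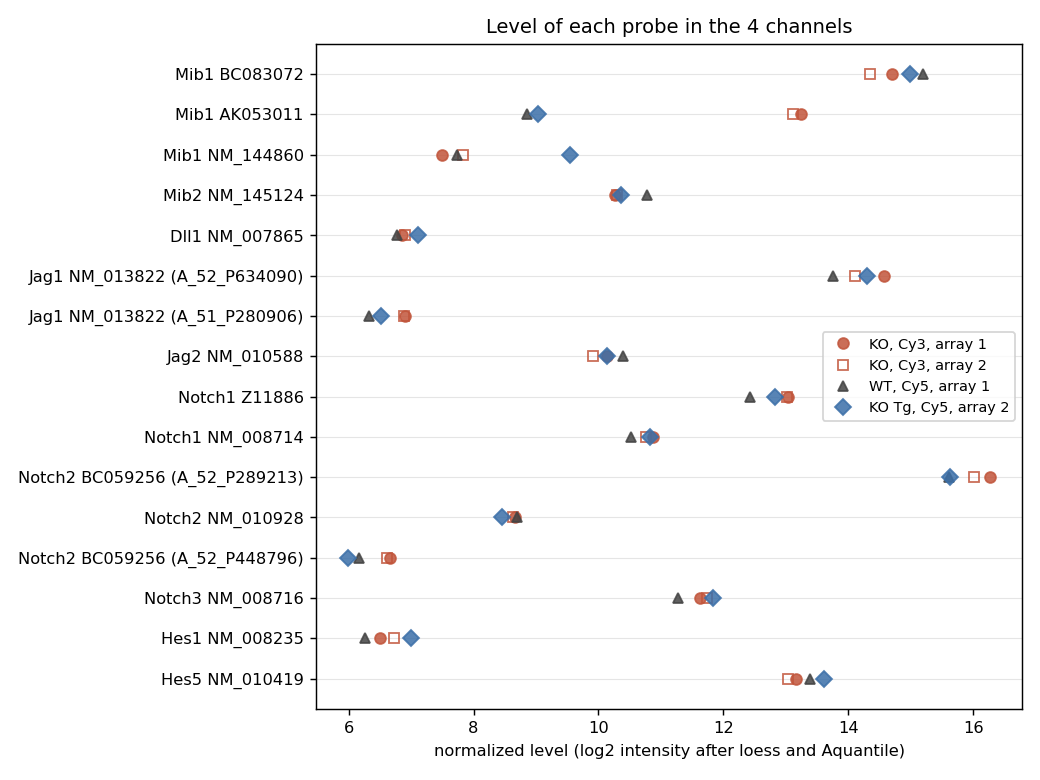
Normalized level (log2 intensity after loess and scaling between arrays) of each probe in the TDAG51-/- channels of both arrays (red circle and open square), TDAG51+/+ (grey triangle) and TDAG51-/-Tg2 (blue diamond). Both TDAG51-/- symbols of Mib1 AK053011 lie near 13 and both controls near 9, and only TDAG51-/-Tg2 stands apart at Mib1 NM_144860. The control symbols of Notch2 A_52_P289213 are saturated.

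Most probes around Mib1 on chromosome 18 had ratios near 0. Within 2000 kb on either side, 52 of 59 other probes were detected, and their log2 ratios had medians of 0.05 (TDAG51+/+) and 0.13 (TDAG51-/-Tg2). The nearest detected ones, both cDNA probes with no gene name, had ratios of 0.48 and 0.39 (AK042441, at -11.6 kb) and 0.49 and -0.16 (AK047455, at -26.4 kb). At least 2-fold higher in both comparisons were 2 of the 52 (2.7% of all detected probes), AY052560 (1.39 and 1.10) and a probe of 3110002H16Rik (3.45 and 3.26) at 1544.7 kb. The other probe of 3110002H16Rik, at 1552.6 kb, had ratios of -0.90 and 0.04, so that probes of a gene differed there too. These genes were named after their values were seen.

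**Figure D3:**
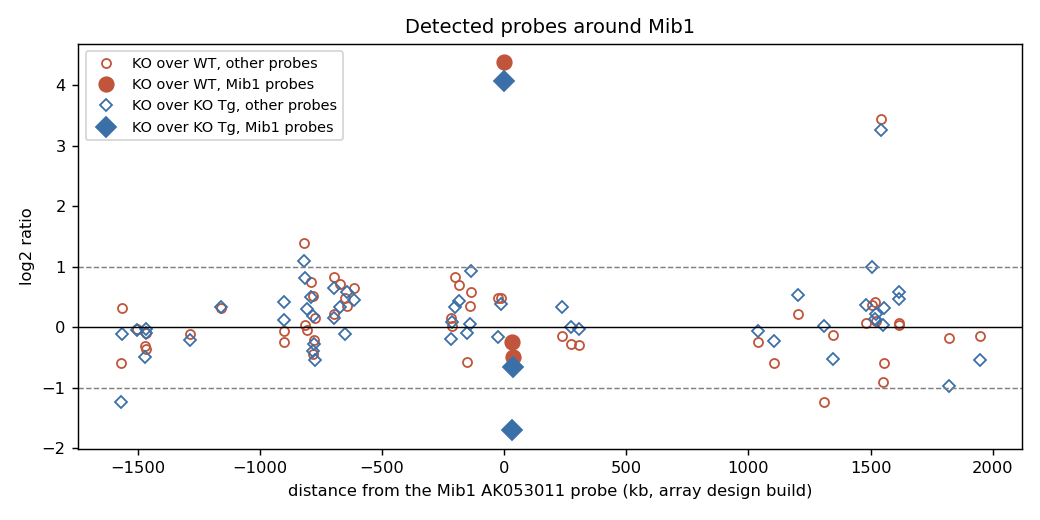
Log2 ratio of each detected probe within 2000 kb of the Mib1 AK053011 probe, against the distance from it in kb, for TDAG51-/- over TDAG51+/+ (red circles) and over TDAG51-/-Tg2 (blue diamonds). Filled symbols are the 3 Mib1 probes. AK053011 stands above 4 in both comparisons, the next highest probe lies 1544.7 kb away, and the nearest probes lie under 0.5.

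The genes whose pair of ratios lay nearest to that of Mib1 AK053011, by Euclidean distance over the 2 comparisons and among 24716 named probes, were Cnpy1 (3.90 and 3.86, distance 0.526), Gabra6 (3.87 and 3.93, distance 0.532), Evi5 (4.19 and 3.43, distance 0.683), Cep250 (3.90 and 3.49, distance 0.759) and Slc35a4 (3.70 and 3.58, distance 0.847). Gabra6 encodes a GABA-A receptor subunit known from cerebellar granule cells. The comparisons share the TDAG51-/- genotype and may share the same RNA, which the titles do not state. The likeness covers the 4 channels and no more. Cerebellar markers lay in the same direction as AK053011. The median of their log2 ratios was 2.11 relative to TDAG51+/+ and 1.98 relative to TDAG51-/-Tg2, and 9 and 10 of 10 were above 0. Summed over the list without normalization, TDAG51-/- had an intensity of 277725 where TDAG51+/+ had 150034. On the second array it had 275975 where TDAG51-/-Tg2 had 144522, and 3 of the 10 probes were saturated. The brightest of them, Zic1 and Cbln1, were saturated in TDAG51-/-, where Cbln1 was at least 4.71-fold and at least 4.55-fold higher. Calb1, known from Purkinje cells and the brightest with no saturated channel, had ratios of 0.98 and 1.22. Striatal markers lay in the other direction, with medians of -1.44 and -1.66 (Adora2a, a striatal adenosine receptor, -2.31 and -2.15, and Ppp1r1b -0.00 and -0.20). The part of brain region content in the Mib1 ratio was not tested.

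Mib2, which encodes a related ligase for Notch ligands, had 1 probe (NM_145124, chr4:154644436-154644495, minus strand). Its levels were 10.26 and 10.30 in the TDAG51-/- channels, 10.77 in TDAG51+/+ and 10.36 in TDAG51-/-Tg2. TDAG51+/+ was the highest of the samples and the other 3 channels lay close together. The log2 ratio was -0.51 ± 0.21 against TDAG51+/+ and -0.06 ± 0.20 against TDAG51-/-Tg2.

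Among Dll1, Jag1 and Jag2, Jag1 had the highest ratio against TDAG51+/+, and the other two were within 1.5-fold. Jag1 encodes Jagged1, a ligand known from astrocytes, neurons and vessels. At its brighter probe (A_52_P634090, chr2:136822550-136822609, minus strand), the levels were 14.57 and 14.11 in the TDAG51-/- channels, 13.75 in TDAG51+/+ and 14.31 in TDAG51-/-Tg2. TDAG51+/+ was the lowest, and TDAG51-/-Tg2 lay between the TDAG51-/- channels, which differed by 0.45. TDAG51-/- was 1.76-fold higher than TDAG51+/+ (log2 0.82 ± 0.22), whereas the log2 ratio against TDAG51-/-Tg2 was -0.19 ± 0.20. Median centring in place of loess gave 0.41 and -0.59.

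The other Jag1 probe, A_51_P280906, whose sequence is printed above, lies 1509 bases away. Its control channel was near background on both arrays. The bounds were 1.48-fold higher than TDAG51+/+ and 1.30-fold higher than TDAG51-/-Tg2. They equal the fitted log2 ratios (0.57 ± 0.34 and 0.38 ± 0.33). At such intensities the ratio depends on the background correction. With no offset it was 1.22 and 0.74 on the log2 scale, and in the deposited values 1.59 and 0.67. Endothelial markers lay the same way as both Jag1 probes in the comparison with TDAG51+/+, and the same way as the dim probe only in the other, with medians of 0.62 relative to TDAG51+/+ (7 of 8 above 0) and 0.10 relative to TDAG51-/-Tg2 (5 of 8), and all 8 were detected. Summed over the list without normalization, TDAG51-/- had 43453 where TDAG51+/+ had 41644, and 37844 where TDAG51-/-Tg2 had 49851. The brightest were Flt1, a VEGF receptor (0.49 and -0.04), and Slco1a4, a transporter of the blood-brain barrier (0.74 and 0.67). The part of these cells in the Jag1 ratio was not tested.

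Dll1 encodes Delta-like 1, a ligand known from neural progenitors. Its probe (NM_007865, chr17:13604553-13604612, minus strand) was printed repeatedly on the array, with 9 usable spots in the comparison with TDAG51+/+ and 10 in the other, which gives the precision within an array. The levels were 6.85 and 6.91 in the TDAG51-/- channels, 6.78 in TDAG51+/+ and 7.12 in TDAG51-/-Tg2. All 4 were low and close together. The mean log2 ratio was 0.07 ± 0.07 (SD, n = 9 spots) against TDAG51+/+, with spots from -0.07 to 0.17, and -0.21 ± 0.07 (SD, n = 10 spots) against TDAG51-/-Tg2, with spots from -0.29 to -0.09.

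For Jag2, which encodes Jagged2, the probe (NM_010588, placed on the unassembled part of chromosome 12 at 2920858-2920917, minus strand) gave levels of 10.14 and 9.91 in TDAG51-/-, 10.40 in TDAG51+/+ and 10.13 in TDAG51-/-Tg2. TDAG51-/- was a little lower than the control on each array, by a log2 ratio of -0.25 ± 0.21 and -0.22 ± 0.21.

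The receptors showed small ratios. Notch1, the receptor known from neural stem cells, had 2 neighbouring probes on the minus strand of chromosome 2 that share 1 base. The Z11886 probe (chr2:26466563-26466621 in the deposited coordinates) was also printed repeatedly, and its levels were 13.03 and 13.02 in the TDAG51-/- channels, 12.42 in TDAG51+/+ and 12.83 in TDAG51-/-Tg2. The TDAG51-/- channels were level with each other and above both controls. The mean log2 ratio was 0.61 ± 0.04 (SD, n = 8 spots) against TDAG51+/+, 1.53-fold, with spots from 0.53 to 0.65. Against TDAG51-/-Tg2 it was 0.18 ± 0.02 (SD, n = 10 spots), with spots from 0.14 to 0.22. Each set of spots repeats 1 probe within 1 array, so its spread gives the precision of printing and not a spread between animals. Over the 218 detected probes with at least 5 usable spots, the median spot SD was 0.06 on each array. The direction against TDAG51-/-Tg2 depended on the normalization, with -0.06 after median centring in place of loess and -0.24 without normalization, whereas that against TDAG51+/+ stayed above 0 (0.38 and 0.23).

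**Figure D4:**
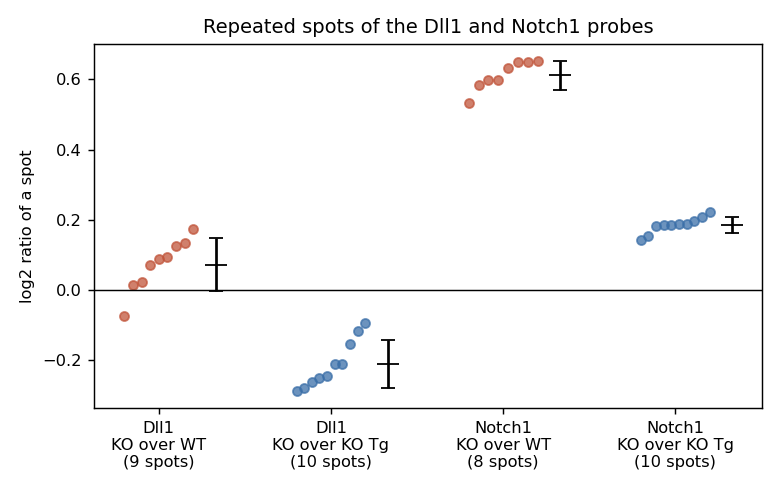
Log2 ratio of every usable spot of the Dll1 and Notch1 (Z11886) probes in each comparison, sorted by value, with the mean and SD over spots in black. Spots are repeats within 1 array and not animals. The Notch1 spots lie between 0.53 and 0.65 against TDAG51+/+ and between 0.14 and 0.22 against TDAG51-/-Tg2, and the Dll1 spots lie on both sides of 0 in the first comparison.

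The neighbouring Notch1 probe (NM_008714, chr2:26466621-26466680) had a GC content of 25%, and its levels were 10.87 and 10.76 in TDAG51-/-, 10.53 in TDAG51+/+ and 10.82 in TDAG51-/-Tg2. TDAG51+/+ was again the lowest sample. The log2 ratios were 0.35 ± 0.21 and -0.07 ± 0.20, which lay 0.26 and 0.25 below those of the Z11886 probe.

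Notch2, a receptor known from neural progenitors, astrocytes and other cell types, had 3 probes, of which 1 was measured in every channel. That probe (NM_010928), printed above, gave levels of 8.67 and 8.63 in TDAG51-/-, 8.70 in TDAG51+/+ and 8.45 in TDAG51-/-Tg2. The samples were level, with log2 ratios of -0.03 ± 0.21 and 0.18 ± 0.21, the latter -0.03 without normalization. At the BC059256 probe A_52_P448796 (chr3:98020144-98020203, plus strand), the control channel was near background on both arrays, and TDAG51-/- had an intensity of 83.9 where TDAG51+/+ had 51.3, and of 82.8 where TDAG51-/-Tg2 had 47.8. TDAG51-/- was at least 1.33-fold and at least 1.12-fold higher there, and the deposited values gave log2 ratios of 2.51 and 2.40 for the same spots. At the BC059256 probe A_52_P289213 (chr3:98021215-98021274, plus strand) the control channel was saturated on both arrays, so no ratio is given. The probes of Notch2 therefore cover both ends of the range of the scanner.

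Notch3, the receptor known from mural cells of blood vessels, had 1 probe (NM_008716, chr17:30311822-30311881, minus strand). Its levels were 11.63 and 11.74 in TDAG51-/-, 11.28 in TDAG51+/+ and 11.84 in TDAG51-/-Tg2. TDAG51+/+ was the lowest, and TDAG51-/-Tg2 lay 0.56 above it. The log2 ratios were 0.36 ± 0.21 and -0.09 ± 0.20. Markers of mural cells had medians of 0.23 relative to TDAG51+/+ (6 of 8 above 0) and -0.47 relative to TDAG51-/-Tg2 (2 of 8 above 0). Summed over the list without normalization, TDAG51-/- had 26412 where TDAG51+/+ had 34221. On the second array it had 23897 where TDAG51-/-Tg2 had 52584, of which Rgs5 made up 19435. The brightest of these markers over both arrays were the contractile gene Acta2 (-0.59 and -0.70) and Rgs5, known from pericytes (0.29 and -2.71). Rgs5 was bright mainly in TDAG51-/-Tg2, and its values had been seen before it was named. The next brightest was the contractile gene Tagln (0.15 and 0.34). The part of mural cells in the Notch3 and Mib1 values of TDAG51-/-Tg2 was not tested.

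Both targets had log2 ratios below 0 against TDAG51-/-Tg2, but Hes1 was dim. Hes5 encodes a repressor that keeps neural progenitors from differentiating and is also known from astrocytes. Its probe (NM_010419, chr4:153951780-153951839, plus strand) gave levels of 13.17 and 13.03 in TDAG51-/-, 13.39 in TDAG51+/+ and 13.62 in TDAG51-/-Tg2. Both controls were above both TDAG51-/- channels. The log2 ratio was -0.22 ± 0.21 against TDAG51+/+ and -0.59 ± 0.21, 1.51-fold lower, against TDAG51-/-Tg2. Median centring in place of loess gave -0.53 and -0.89.

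Hes1, which encodes the other repressor and whose probe is printed above (NM_008235), was dim. Its levels were 6.51 and 6.72 in TDAG51-/-, 6.26 in TDAG51+/+ and 7.00 in TDAG51-/-Tg2. The TDAG51+/+ channel was near background, and the bound of 1.19-fold higher in TDAG51-/- equals the fitted log2 ratio (0.25 ± 0.40). The scanner's own log2 ratio against TDAG51+/+ was 0.73. Against TDAG51-/-Tg2 the log2 ratio was -0.27 ± 0.28. The scanner's own ratio against TDAG51-/-Tg2 was -0.49.

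The controls themselves differed at these probes. Between the Cy5 channels, TDAG51-/-Tg2 minus TDAG51+/+ ranged from -0.42 (Mib2) to 1.80 (Mib1 NM_144860) on the log2 scale over the 12 probes measured in every channel, and 8 of 12 were above 0. At least 2-fold higher was 1 of 12, against 3.36% of the 29876 probes detected in all 4 channels, and none was 2-fold lower, against 3.44%. Between the TDAG51-/- channels of both arrays, the difference ranged from -0.45 (Jag1) to 0.34 (Mib1 NM_144860), and none of the 12 was 2-fold, against 0.144% higher and 0.131% lower of the same 29876 probes. The robust SD over those probes was 0.40 between the control channels and 0.14 between the TDAG51-/- channels. With dim and saturated probes at their fitted values, in 12 of 16 probes the log2 ratio against TDAG51+/+ was above that against TDAG51-/-Tg2, and 6 of 16 had opposite signs in the comparisons.

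The wider pathway was read from 57 further genes, each by its brightest probe, and all were detected. The list had medians of -0.09 (TDAG51+/+) and 0.01 (TDAG51-/-Tg2), beside -0.00 and 0.01 over 16871 detected genes. At least 2-fold higher than in TDAG51+/+ was 1 of 57 (4.72% of all genes) and at least 2-fold lower were 2 of 57 (4.78%). Compared with TDAG51-/-Tg2, 1 was higher (4.52%) and none was lower (4.11%). Positive ratios were found in 24 and 29 of 57. The share of positive ratios over all genes was not taken. Shares at 2-fold lay below those of all genes, but each rests on 2 genes or fewer.

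Ctbp2, which encodes a corepressor, was the gene at least 2-fold higher in both comparisons (2.64% of all genes), with log2 ratios of 1.05 ± 0.23 and 1.01 ± 0.23, and no gene was lower in both (1.7%). TDAG51-/- had an intensity of 2917 where TDAG51+/+ had 1646, and of 2605 where TDAG51-/-Tg2 had 1533. It lay just past 2-fold in each, and under it with median centring (0.97 and 0.94). The genes at least 2-fold lower than in TDAG51+/+, named after their values were seen, were Ncstn, which encodes the gamma-secretase subunit nicastrin (-1.62 ± 0.32), and Rbpjl, a relative of Rbpj (-1.10 ± 0.23). Their log2 ratios against TDAG51-/-Tg2 were -0.45 and -0.26, so neither was 2-fold lower in both on this scale. For Ncstn the call depended on the processing, since the deposited ratios were -2.65 and -1.07, at least 2-fold lower in both. The same held for Maml3 of the nuclear complex, with deposited ratios of -1.61 and -1.96, also named after its values were seen. Its ratios on the scale used here were -0.28 and -0.54, and its TDAG51-/- channel was near background on both arrays.

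By role, genes of ligand endocytosis, the step that Mib1 starts, had medians of -0.30 and -0.43 in the order TDAG51+/+ and TDAG51-/-Tg2, with 1 of 6 above 0 in each. The brightest were Neurl1a (-0.09 and -0.19) and Neurl1b (-0.96 and -0.95), which encode ligases of the Neuralized family. Other ligands had medians of 0.18 and 0.15, with Dner, known from Purkinje cells, at 0.25 and 0.15 and the contactin Cntn1 at -0.09 and 0.40. The endothelial receptor Notch4 had ratios of 0.31 and 0.59.

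Enzymes that add sugars to Notch had medians of -0.25 and -0.00 (Poglut1 -0.25 and 0.44, Pofut1 -0.10 and -0.00). Those of the proteases that cut it were -0.03 and 0.13, with the gamma-secretase subunit Aph1b at 0.50 and 0.31 and Furin saturated in the control channel. Cytoplasmic regulators had medians of -0.12 and -0.25 (the ligase Dtx4 -0.17 and -0.54, the kinase Aak1 -0.07 and 0.18). On the scale used here, no list had a member 2-fold apart other than Ctbp2, Ncstn and Rbpjl.

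Genes of the nuclear complex had medians of 0.02 and -0.13, with the coactivator Snw1 at -0.16 and 0.12 and Fbxw7, which marks the Notch fragment for breakdown, at -0.44 and -0.39. A list of further targets and related genes, not all of which need be induced by Notch, had medians of -0.00 and 0.03. Hey1, a Hes-related target, had ratios of 0.11 and 0.02, and Hes6, a neuronal relative, 0.49 and 0.79. None of the 10 genes of that list was 2-fold apart in either comparison, as with Hes1 against TDAG51-/-Tg2 and Hes5 in both. Of all genes, 4.72% were higher and 4.78% lower than in TDAG51+/+, and 4.52% and 4.11% than in TDAG51-/-Tg2. A count of none among 10 is near those shares.

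**Figure D5:**
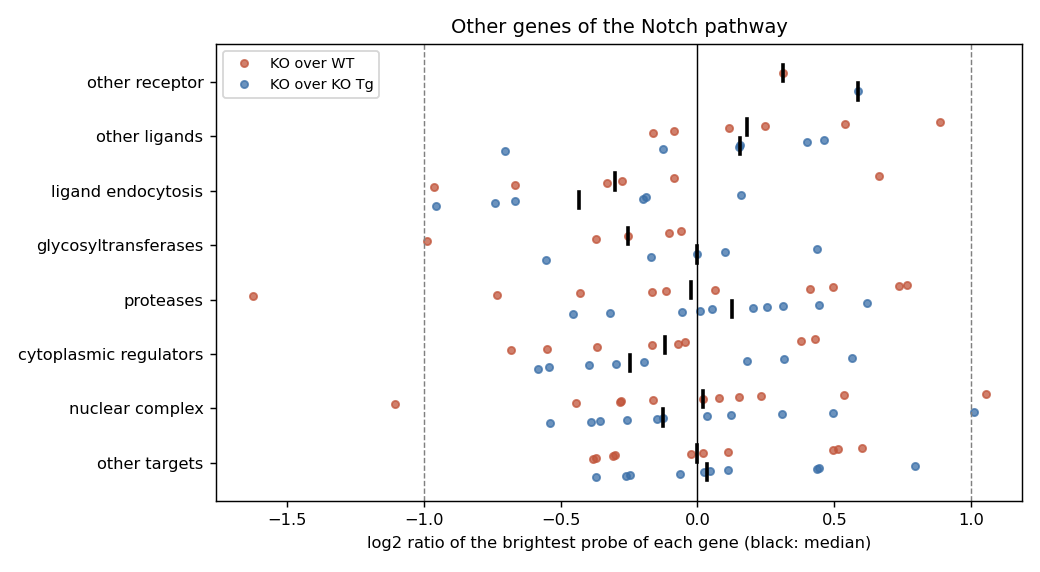
Log2 ratio of the brightest probe of each of the 57 other genes of the pathway, by role, for TDAG51-/- over TDAG51+/+ (red) and over TDAG51-/-Tg2 (blue), with the median of each list as a black bar and dashed lines at 2-fold. Saturated and dim genes are at their fitted values. Ctbp2 of the nuclear complex lies past the dashed line on the right in both comparisons, and Ncstn and Rbpjl on the left in the first.

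The remaining marker lists covered neurons, astrocytes, oligodendrocytes and ependymal cells. Neurons had medians of -0.09 and -0.13 (Rbfox3 0.10 and -0.23, Syt1 -0.57 and -1.29). At least 2-fold lower against TDAG51-/-Tg2 was 1 of 8, Syt1 (4.11% of all genes). Astrocytes, in which Hes5, Notch1 and Jag1 are also known, had medians of 0.07 and 0.19, with 5 of 9 probes saturated, among them S100b and Slc1a3. Of the 9, 1 was at least 2-fold higher against TDAG51-/-Tg2 (4.52% of all genes), Aqp4 with 1.28, named after its values were seen. Oligodendrocytes had medians of -0.13 and 0.34 (Mobp -0.13 and 0.73, and Cnp saturated). Ependymal cells had medians of 0.27 and 0.46 over 5 genes (the brightest were Dynlrb2, 0.01 and -0.35, and Rarres2, -0.04 and -0.13). Named after their values were seen, the other 3 were above 0 in both comparisons, Foxj1 with 0.30 and 0.72, Rsph1 with 0.27 and 0.46 and Tmem212 with 1.41 and 0.88. The part of these cells in the values of the pathway was not tested.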

How the data were processed

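Agilent whole mouse genome arrays (2 colours) compared a TDAG51-/- sample (Cy3) with the TDAG51+/+ or TDAG51-/-Tg2 sample (Cy5) on 1 array each. The authors deposited scanner files (Agilent Feature Extraction 9.5.3.1) that hold the mean and median background intensity of each spot, and the software's log10 ratio (Cy5 over Cy3, corrected for background and dye) with its error. A second deposited value, the log2 of Cy3 over Cy5, was also used, and its normalization is not given in the sources used here. Coordinates are those of the scanner output (mm7).

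The analysis left out control spots and 375 and 300 outlier spots. Background was corrected by normexp (offset 50) and ratios were normalized by loess in limma 3.58.1 (R 4.3.3, data.table version 1.17.8, jsonlite 2.0.0), spots of a probe were averaged, and channel levels were scaled between arrays by Aquantile. Summaries and plots used Python 3.11.15, numpy 2.4.6, pandas 2.3.3 and matplotlib 3.10.9. The method was tested on simulated data. Counts at 2-fold are over probes that the scanner marked as well above background in Cy3 or Cy5 on each array. Where the dimmer channel was near background, a fold is a lower bound: the mean of the brighter channel over the higher of the dim probe's own level and the lowest signal well above background, open to dye bias without swaps. Where the dim probe's own level was the higher, the bound equals the fitted ratio. Pairs of channels that were both dim, or whose dimmer normalized channel was saturated, have no fold. Non-control spots had median intensities of 338.2 (Cy3) and 363.8 (Cy5) for the TDAG51+/+ array and 336.1 and 385.0 for the other, and 60 and 62 probes were saturated in Cy3 and 480 and 510 in Cy5. Before normalization, the median log2 ratio was -0.19 and -0.24. Precision is limited by the number of arrays, and no test across animals was made.

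Genes were named through RefSeq genes of GRCm38.p6, which matched 32716 of 41174 probes (accession 22944, symbol 6664, synonym 3108) and left 8458 unmatched. Promoter sequence came from the same build. Members and lists were chosen with earlier results of these arrays known. Named are all members, pathway genes at least 2-fold apart in 1 direction in both comparisons and otherwise up to 2 of the brightest genes of each pathway list, up to 2 of the brightest genes of each marker list, the 5 genes nearest to Mib1 AK053011, and TDAG51. Alternatives were offset 0, median centring, no normalization, the scanner's log ratio, the deposited log2 ratio, other filters, a 1.5-fold threshold, other choices of probe and no scaling between arrays.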

Additional observations from a re-analysis of the deposited data

How the results depend on the processing

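No ratio of a member probe changed its sign when it was 2-fold or more, and of 160 ratios under alternatives 118 moved by less than the scanner's error and 42 by more. Counts of member probes at least 2-fold higher than TDAG51+/+, 1 as reported, were 3 with offset 0, the scanner's log ratio or the deposited log2 ratio (with the dim Jag1 and Notch2 probes), 4 at 1.5-fold and 0 with the brightest or the median probe of each gene. Against TDAG51-/-Tg2 and in both comparisons, the count of 1 was 2 with offset 0, the scanner's or the deposited ratio and 0 by gene, and against TDAG51-/-Tg2 it was 2 at 1.5-fold. Lower than TDAG51-/-Tg2, 1 as reported, were 2 with median centring, 3 with no normalization or at 1.5-fold and 0 by gene. With no normalization 1 probe, Mib1 BC083072, was lower than TDAG51+/+ and in both, where none was reported. For the wider pathway, 1 higher than TDAG51+/+ became 2 with offset 0, the scanner's or deposited ratio or every probe counted, and 0 with median centring, no normalization or the median probe, and 2 lower became 5 with no normalization and 4 with the scanner's or deposited ratio or every probe. Against TDAG51-/-Tg2 and in both, 1 higher became 0 with median centring, no normalization or the median probe and 2 with every probe, and 0 lower became 1 with offset 0 (against TDAG51-/-Tg2 only), 2 with the scanner's or deposited ratio, and with median centring or no normalization 2 against TDAG51-/-Tg2 and 1 in both. Median centring or no normalization added 1 lower neuronal gene in each comparison (1 against TDAG51+/+, 2 against TDAG51-/-Tg2) and 1 lower astrocyte gene in each, and the median probe left 0 neuronal and 0 astrocyte genes against TDAG51-/-Tg2. The astrocyte gene higher there was also lost (0) with no normalization. Mural genes lower against TDAG51-/-Tg2 were 2 with median centring and 3 with no normalization, which also put 1 lower against TDAG51+/+. Offset 0, the scanner's or the deposited ratio put 1 mural and 1 oligodendrocyte gene higher against TDAG51-/-Tg2 and 1 endothelial gene higher against TDAG51+/+, and the scanner's or deposited ratio 1 ependymal gene higher against TDAG51-/-Tg2. The cause of these shifts was not tested. Other counts stayed within 1.5 times. The ratios of dim probes are the least certain. No paired analysis was possible because each comparison has 1 array, and leaving out a replicate was not possible for the same reason.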
